A study of Mus musculus with 12 samples.

Results

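The genes described here are 9 components of the peroxiredoxin and thioredoxin system, namely Prdx1, Prdx2, Prdx3, Prdx5, Prdx6, Txn1, Txn2, Txnrd1 and Txnrd2. They were chosen by symbol among the 28997 genes of the authors' tables, with no threshold on a measured value. All 9 were found, and each had a summed normalised read count of at least 100 over the 12 libraries. RNA was sequenced from the soleus, a predominantly slow-twitch calf muscle, of mice fed for 8 weeks on chow or on a high fat diet. Both genotypes carried Cre recombinase named after Cdh5, the vascular endothelial cadherin gene whose promoter is used to target endothelial cells. One genotype was Cdh5cre-WT and the other was Cdh5Cre-NOX1CKO, a conditional knockout of the NADPH oxidase gene Nox1, with 3 mice for each genotype on each diet. The authors' tables name the 4 groups only as G1, G2, G3 and G4, and the labels do not say which code stands for which genotype and diet, so the groups are given by code throughout. The recombinase is directed at endothelial cells while the RNA came from whole muscle. In such bulk tissue, fewer cells of a type and less RNA per cell cannot be told apart.

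Peroxiredoxins are abundant thiol peroxidases that reduce hydrogen peroxide and other peroxides at a reactive cysteine. The oxidised enzyme is usually reduced by thioredoxin, and thioredoxin in turn by thioredoxin reductase, a selenoprotein that draws its electrons from NADPH. In muscle, as in other tissues, one set of these proteins works in the cytosol and another in the mitochondria. Here Prdx1, Prdx2, Prdx6, Txn1 and Txnrd1 were taken as the 5 cytosolic members. Prdx3, Prdx5, Txn2 and Txnrd2 were taken as the 4 mitochondrial members, although Prdx5 is also found in peroxisomes and the cytosol.

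The chemistry shared by the members can be read in their coding sequences, which are shown because every member acts through these codons. Each stretch below comes from the coding exons of a GENCODE M21 transcript of mouse build GRCm38, and the capitals mark catalytic codons. In the peroxiredoxins the capitals mark the peroxidatic cysteine, which attacks the peroxide.
Prdx1: tttacttttgtgTGTcccacggagatc
Prdx2: ttcacttttgttTGCcccacggagatc
Prdx3: ttcacatttgtgTGTcctacagaaatt
Prdx5: tttacacctggcTGTtctaagacccac
Prdx6: tttaccccagtgTGCaccacagaactt
In the thioredoxins the capitals mark the pair of active-site cysteines that form a disulphide when a client is reduced.
Txn1: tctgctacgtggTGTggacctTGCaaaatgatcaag
Txn2: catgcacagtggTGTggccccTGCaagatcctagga
In the reductases the first stretch shows the redox-active cysteine pair, and the second shows the TGA codon that is read as selenocysteine rather than as a stop.
Txnrd1, cysteine pair: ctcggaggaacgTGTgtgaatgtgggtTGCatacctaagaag
Txnrd1, selenocysteine: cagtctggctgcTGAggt
Txnrd2, cysteine pair: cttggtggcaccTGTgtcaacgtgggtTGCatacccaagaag
Txnrd2, selenocysteine: gtgactggttgcTGAggc
In both reductases 1 codon followed the selenocysteine codon before the end of the reading frame, at coding bases 1480 to 1497 of Txnrd1 and 1564 to 1581 of Txnrd2. In GRCm38 the cytosolic genes lie at chr4:116685544-116700822 for Prdx1 (plus strand), chr8:84969587-84974834 for Prdx2 (plus), chr1:161240112-161251219 for Prdx6 (minus), chr4:57943373-57956411 for Txn1 (minus) and chr10:82833951-82897712 for Txnrd1 (plus). The mitochondrial genes lie at chr19:60864051-60874556 for Prdx3 (minus), chr19:6906697-6910106 for Prdx5 (minus), chr15:77915047-77929006 for Txn2 (minus) and chr16:18426384-18479073 for Txnrd2 (plus).

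The tables held no value for a single library. They gave 1 sum over all libraries for each gene, a log2 fold change for each comparison and a p-value. All genes together summed to 298863066 normalised reads, a mean of 24905255 per library, and the 9 members took 0.0786% of them. Skeletal muscle fibre markers were present, with 9 of 9 above 0. Nox1 itself summed to 25.2 normalised reads over all 12 libraries, with log2 fold changes of -0.23 in G3 versus G1, -0.71 in G4 versus G2 and 0.15 in G4 versus G3 in the authors' deposited tables. At that depth Nox1 gave no check of which code is the knockout. The ribosomal RNA gene CT010467.1 took 2.89% of all reads, and its log2 fold change in the authors' deposited tables was -0.59 in G4 versus G2 (adjusted p = 0.0203) and -0.96 in G4 versus G3 (adjusted p = 2.48e-05). The same gene stood at -0.39 in G2 versus G1 (unadjusted p = 0.0146, not called) and at -0.02 in G3 versus G1 in the authors' deposited tables. Its part in the results below was not tested.

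All members except Txnrd2 and Txn1 had more than 1000 normalised reads per library. Group levels were estimated by splitting each gene's sum over the groups with the deposited fold changes, and they therefore carry no error of their own. Among the cytosolic peroxiredoxins, Prdx1 had an estimated 2263, 2061, 2165 and 2128 normalised reads per library in G1 to G4. Prdx2 was the flattest member, with 2690, 2629, 2625 and 2610 in the same order of groups. Prdx6, a peroxiredoxin that takes its electrons mainly from glutathione, had 2748, 2851, 2999 and 2910. G1 was thus the highest group for Prdx1 and Prdx2 and the lowest for Prdx6.

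Among the mitochondrial peroxiredoxins, Prdx3, a major peroxidase of the matrix, had an estimated 3116, 3057, 3211 and 3311 normalised reads per library in G1 to G4. Prdx5, which favours organic peroxides and peroxynitrite, had 2788, 2602, 2976 and 2973. For both genes G2 was lowest, and G3 and G4 lay above G1. Txn2, the mitochondrial thioredoxin, had 3584, 3548, 3453 and 3641. Txn1, the cytosolic thioredoxin, had 511, 454, 500.0 and 502, again with G2 lowest. The cytosolic reductase Txnrd1 had 1657, 1615, 1555 and 1711, and the mitochondrial reductase Txnrd2 had 233, 213, 215 and 222. The highest group exceeded the lowest by a ratio of 1.03 for Prdx2 up to 1.14 for Prdx5, with a median of 1.09. For the 10668 genes with a sum of at least 1000 the median ratio was 1.13, and 54.4% of them had a ratio under that of Prdx5.

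**Figure D1:**
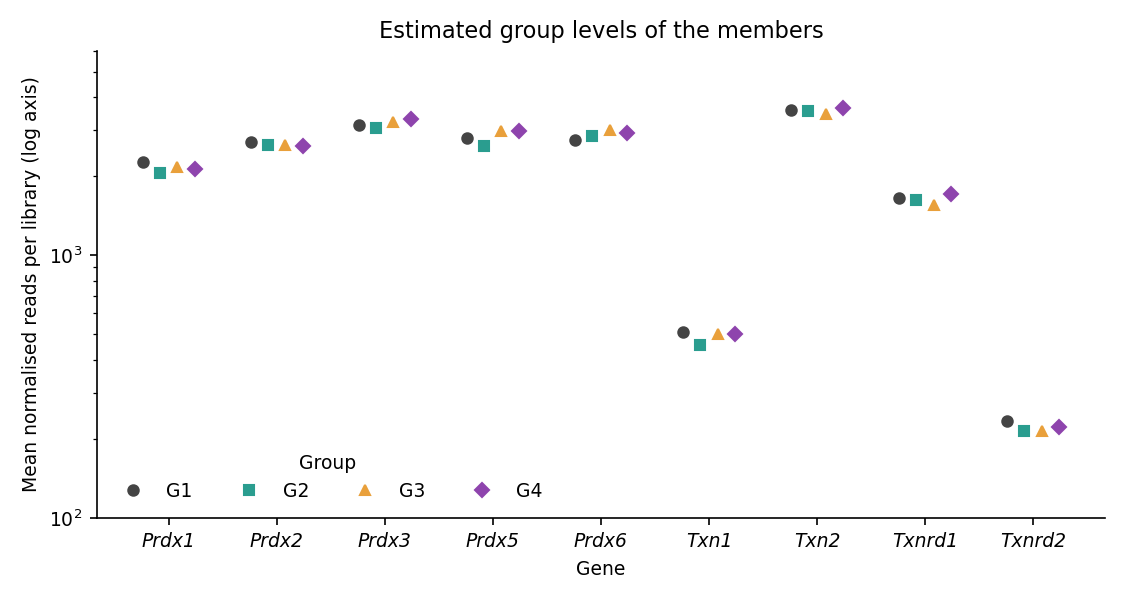
Estimated mean normalised reads per library (log axis) of the 9 members in groups G1 to G4, one marker per group; levels were split from one sum per gene, so no error bars can be drawn. The 4 markers of each gene lie close together, with a highest-to-lowest ratio between 1.03 and 1.14, while Txn1 and Txnrd2 sit below the other 7 genes.

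Levels can be compared between genes only per length of transcript. Per kilobase of annotated exon, Prdx3 was highest with 2147 normalised reads per library. Prdx5 followed with 1325, then Prdx2 with 865, Txn2 with 845, Prdx1 with 708, Prdx6 with 599 and Txn1 with 468. The reductases were lowest, with 231 for Txnrd1 and 50.2 for Txnrd2. The order of the middle genes depended on the length used. With the longest annotated transcript as the length, Prdx3 and Txn1 kept their values, Txn2 came to 1736, Prdx2 to 1637, Prdx5 to 1552, Prdx6 to 1125, Prdx1 to 939, Txnrd1 to 451 and Txnrd2 to 76.9. Summed per kilobase of exon, the mitochondrial members reached 4317, 4176, 4433 and 4546 in G1 to G4, a highest-to-lowest ratio of 1.09. The cytosolic members reached 2917, 2793, 2892 and 2880, a ratio of 1.04.

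No member was called at an adjusted p under 0.05 in any of the 4 comparisons. Of all genes tested, the calls made up 0.21% in G3 versus G1 (61 genes), 1.38% in G4 versus G2 (200 genes) and 0.0394% in G4 versus G3 (7 genes). In G2 versus G1 the share was 0.00345% (1 gene) of all 28997 genes, not all of which had a value there. A count of 0 among 9 members is therefore near the background in each comparison. Without adjustment, a p under 0.05 was reached by 1 of 9 members in G4 versus G2 and by 0 of 9 in each of the other 3 comparisons. The matching shares of genes with a sum of at least 100 were 9.06% in G4 versus G2, 2.35% in G2 versus G1, 5.63% in G3 versus G1 and 4.83% in G4 versus G3. The measurements were narrow: a standard error worked back from each deposited p-value lay between 0.07 and 0.13 on the log2 scale. All 36 of the 95% intervals, one for each member in each comparison, stayed within 1.5-fold in either direction. The lowest bound was 0.766-fold and the highest 1.30-fold.

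**Figure D2:**
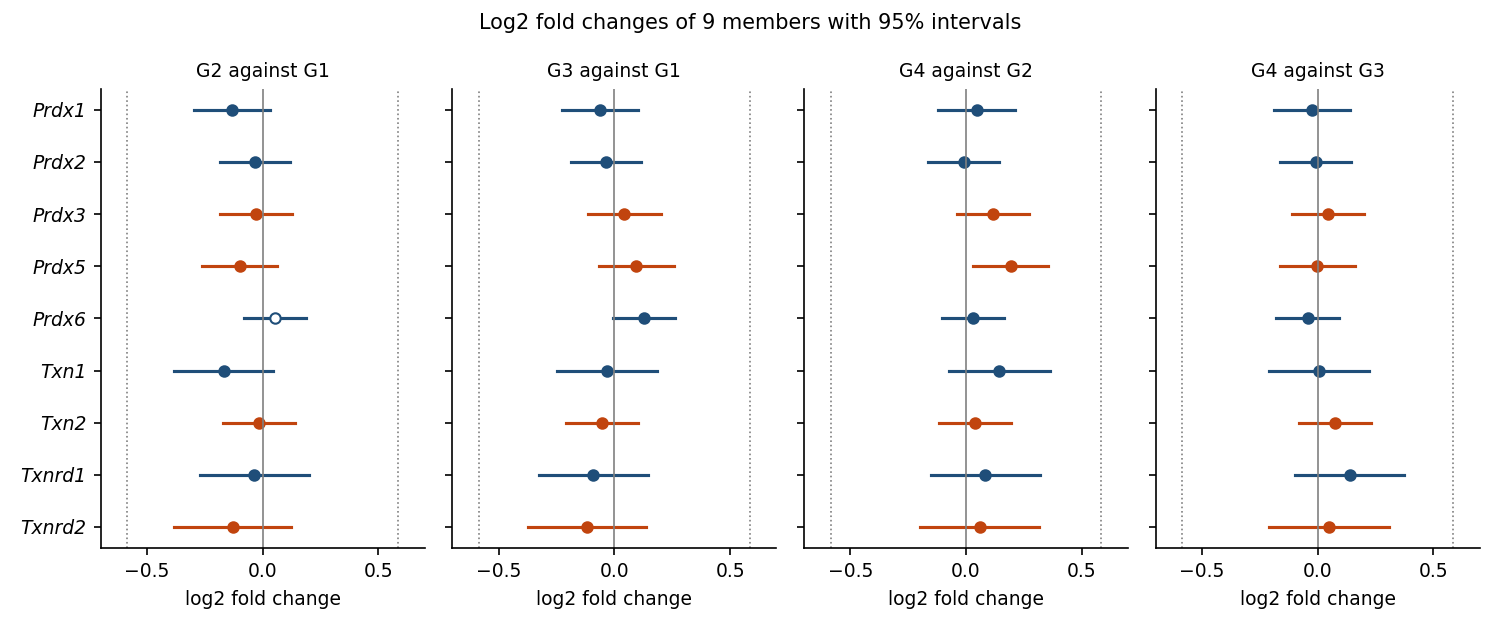
Log2 fold change of each member in the 4 comparisons, with 95% intervals from the implied standard errors; blue marks cytosolic and orange mitochondrial members, the open point is a rebuilt value, and dotted lines mark 1.5-fold. The 36 intervals all lie inside the dotted lines, and Prdx5 in G4 versus G2 is the one whose interval lies wholly above 0.

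The peroxiredoxin with the lowest p was Prdx5. In the authors' deposited table for G4 versus G2 its log2 fold change was 0.19 (implied standard error 0.08), a level 14.3% higher in G4 with a 95% interval of 2.13% to 27.9%. The unadjusted p was 0.0199 and the adjusted p 0.361, so it was not called. A log2 fold change of 0.28 would have been needed for a call at this standard error. After trends on GC content, transcript length and read sum were removed over all genes, the value came to 0.12, or 8.98% higher with an interval of -2.60% to 21.9% (unadjusted p = 0.134, adjusted p = 0.785). The authors' deposited tables gave Prdx5 -0.10 in G2 versus G1, 0.09 in G3 versus G1 and -0.00 in G4 versus G3. G2 serves in both G2 versus G1 and G4 versus G2, so its low Prdx5 level enters both values.

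The other mitochondrial peroxiredoxin, Prdx3, had log2 fold changes of -0.03 in G2 versus G1, 0.04 in G3 versus G1, 0.12 in G4 versus G2 (unadjusted p = 0.148, adjusted p = 0.745) and 0.04 in G4 versus G3 in the authors' deposited tables. With trends removed, the Prdx3 value in G4 versus G2 came to 0.06. Prdx3 was the member nearest to Prdx5 in its pattern over the 4 groups, at a Euclidean distance of 0.0880 between centred log2 levels. Among all 10667 other genes with a sum of at least 1000, the 3 nearest to Prdx5 were Isca2 (distance 0.00315), Chkb (0.00399) and Tomm5 (0.00658). Isca2 encodes a mitochondrial iron-sulphur cluster assembly protein, Chkb a choline kinase and Tomm5 a small subunit of the outer membrane import pore. These distances rest on 4 estimated levels per gene and describe likeness only.

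The cytosolic peroxiredoxins differed little between groups. For Prdx1, the authors' deposited tables gave log2 fold changes of -0.13 in G2 versus G1 (95% interval -18.7% to 2.07%, unadjusted p = 0.108, adjusted p = 1), -0.06 in G3 versus G1, 0.05 in G4 versus G2 and -0.03 in G4 versus G3. Prdx2 stayed between -0.04 and -0.01 in all 4 of the authors' deposited tables, with interval bounds from -12.2% to 10.6%. Prdx6 was 9.16% higher in G3 than in G1 in the authors' deposited table, with an interval of -0.532% to 19.8% (unadjusted p = 0.0647, adjusted p = 1). With trends removed, Prdx6 came to 10.2% higher in G3 than in G1, with an interval of 0.419% to 20.9% (unadjusted p = 0.0406), and was not called. The authors' deposited tables gave Prdx6 log2 fold changes of 0.03 in G4 versus G2 and -0.04 in G4 versus G3. The table for G2 versus G1 does not list Prdx6, and its value rebuilt from the other 3 comparisons was 0.05 (implied standard error 0.07).

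The 95% intervals of the thioredoxins and reductases all included 0. Txn1 had the lowest log2 fold change of any member, -0.17 in G2 versus G1 in the authors' deposited table (an interval of -23.4% to 3.26%, unadjusted p = 0.124, adjusted p = 1). In the authors' deposited tables Txn1 stood at -0.03 in G3 versus G1, 0.14 in G4 versus G2 (unadjusted p = 0.195, adjusted p = 0.792) and 0.01 in G4 versus G3. Txn2 lay between -0.05 and 0.08 in the 4 authors' deposited tables. Txnrd1 had its largest value in G4 versus G3, 0.14 in the authors' deposited table with an interval of -6.51% to 29.5% (unadjusted p = 0.25, adjusted p = 1). Txnrd2, the least abundant member, had the widest errors, and the authors' deposited tables gave it -0.13 in G2 versus G1, -0.12 in G3 versus G1, 0.06 in G4 versus G2 and 0.05 in G4 versus G3. In G2 versus G1, G3 versus G1 and G4 versus G3, every member value in the authors' deposited tables had an unadjusted p above 0.05, as did the rebuilt Prdx6 value (0.437).

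In G4 versus G2, 8 of 9 members were above 0, with a median log2 fold change of 0.06, whereas 50.1% of genes with a sum of at least 100 were above 0. With trends on GC content, length and read sum removed, 6 of 9 were above 0, with a median of 0.05. In G2 versus G1, 1 of 9 was above 0, with a median of -0.04, against 49.7% of those genes. G2 enters both comparisons on opposite sides. In G3 versus G1, 3 of 9 members were above 0 with a median of -0.04, against 50.1% of genes, and in G4 versus G3, 5 of 9 with a median of 0.01, against 50.9%. With trends removed these became 4 of 9 with a median of -0.01 and 3 of 9 with a median of -0.06, so the median in G4 versus G3 turned its sign. The count in G2 versus G1 was again 1 of 9, with a median of -0.04. The medians over those genes were all within 0.01 of 0. No single member was called, so these counts describe small offsets.

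**Figure D3:**
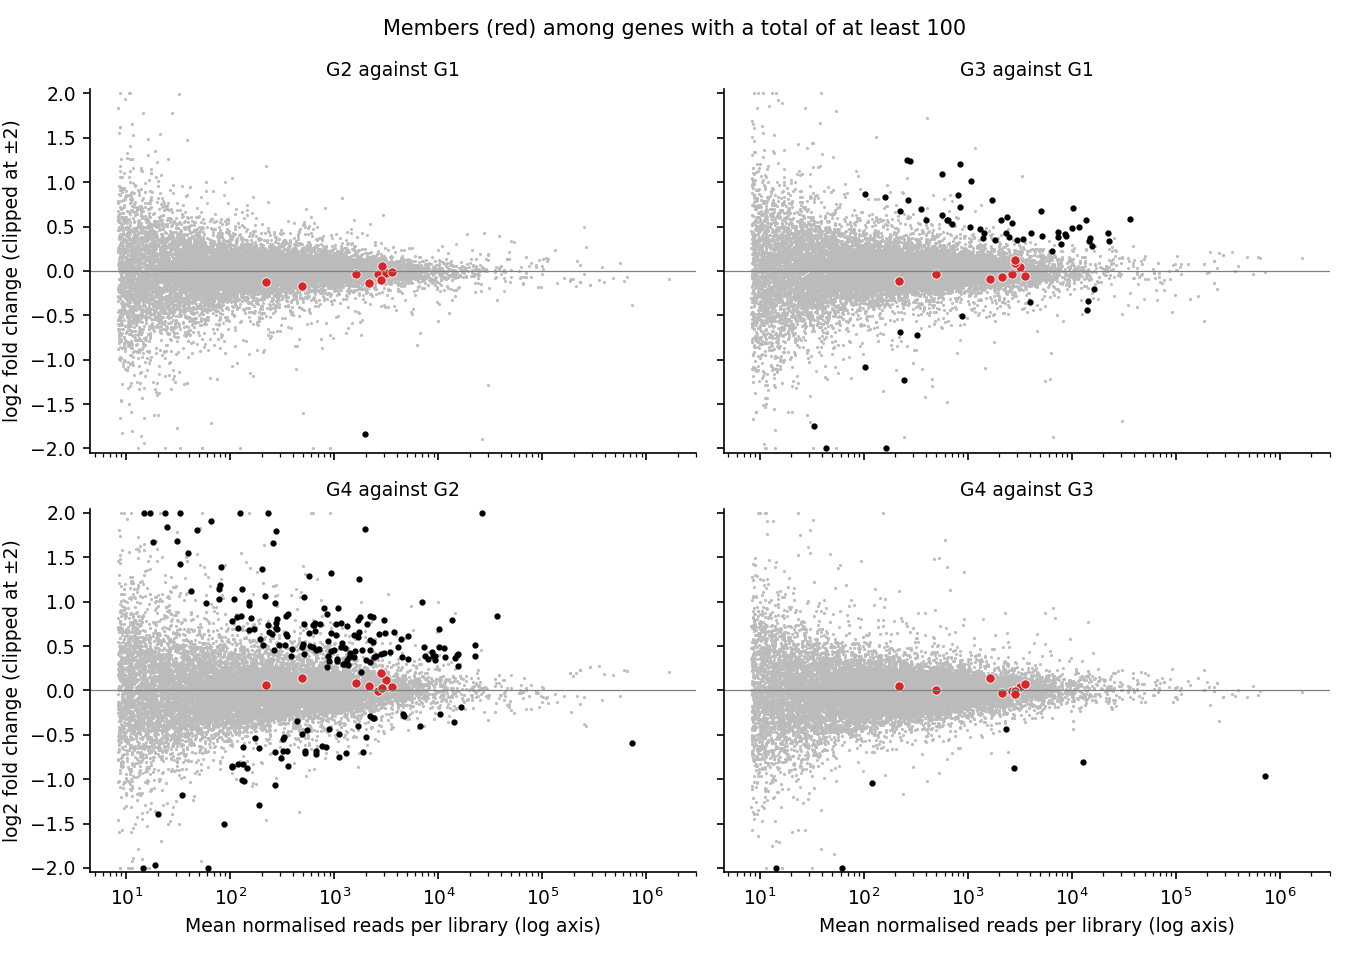
Log2 fold change (clipped at 2 either way) against mean normalised reads per library (log axis) for all genes with a sum of at least 100, in the 4 comparisons; red marks the 9 members and black the genes called at an adjusted p under 0.05. The members lie inside the grey cloud in every panel, none among the black points, and their largest distance from 0 is 0.19.

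In size, too, the members' values were small. Their median absolute log2 fold change was 0.05 in G2 versus G1, 0.06 in G3 versus G1, 0.06 in G4 versus G2 and 0.04 in G4 versus G3. For genes with a sum of at least 1000 the same medians were 0.07, 0.09, 0.10 and 0.09. The members' median implied standard error was 0.08 in each comparison, and that of those genes 0.14. The members were thus measured more precisely, so their median sizes and those of the other genes are not like for like.

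No group is shared by G3 versus G1 and G4 versus G2, so their difference and their mean could be tested from the deposited values. The difference, an interaction, was called for 0 of 9 members, with 0 at an unadjusted p under 0.05. Among the 15494 genes with a sum of at least 100 it was called for 0.00645% (1 gene), and 4.12% had an unadjusted p under 0.05. The interaction was above 0 for 8 of 9 members, with a median of 0.10 on the log2 scale, against 51.5% of genes. With trends removed it was above 0 for 6 of 9 members, with a median of 0.02, against 50.6% of genes. Its largest values were 0.18 for Txnrd2 (standard error 0.18, unadjusted p = 0.336), 0.17 for Txnrd1 (0.17, unadjusted p = 0.303) and 0.17 for Txn1 (0.16, unadjusted p = 0.263), each with an adjusted p of 0.9997. Prdx6 was the exception, at -0.10. G2 enters the interaction too, so its count of 8 of 9 is not independent of the counts in G4 versus G2 and G2 versus G1.

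The mean of both comparisons was called for 0 of 9 members, where 1.65% of genes (255) were called. Prdx5 again had the lowest p. Its mean log2 fold change was 0.14 (standard error 0.06), 10.4% higher with an interval of 2.01% to 19.6%, at an unadjusted p of 0.0142 and an adjusted p of 0.283. An unadjusted p under 0.05 was found for 9.74% of genes and for 1 of 9 members. Prdx3 and Prdx6 each had a mean of 0.08, Txn1 0.06, and the other 5 members lay between -0.03 and -0.00.

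**Figure D4:**
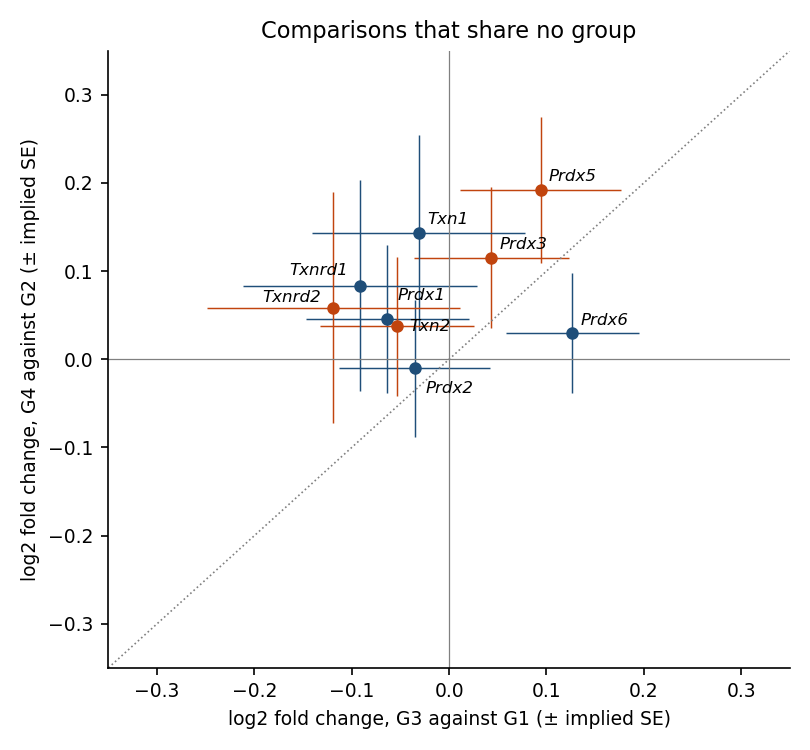
Log2 fold change of each member in G3 versus G1 (horizontal) and in G4 versus G2 (vertical), comparisons that share no group, with bars of 1 implied standard error; blue marks cytosolic and orange mitochondrial members, and the dotted line marks equal values. Prdx5, Prdx3 and Prdx6 are above 0 on both axes, and 8 of 9 genes, all except Prdx6, lie above the dotted line (6 of 9 with trends removed).

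Near-identical gene copies can take or give reads when reads are shared out between transcripts, and 4 members had an annotated copy with a sum of at least 100. The most prominent was Gm21399, which matched the Prdx1 transcript at 98.3% of 597 bases. Its sum was 7206 normalised reads, equal to 27.9% of that of Prdx1. Few letters separate them even in a stretch of 60 coding bases chosen for the most differences (Prdx1 coding bases 166 to 225). The differing bases are in capitals.
Prdx1: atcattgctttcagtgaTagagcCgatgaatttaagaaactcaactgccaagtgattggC
Gm21399: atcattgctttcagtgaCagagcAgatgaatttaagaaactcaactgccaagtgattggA
Elsewhere the 2 sequences ran for up to 102 bases without a difference. Prdx2-ps1 matched Prdx2 at 96.3% of 597 bases and held 9.93% as many reads, Txn-ps1 matched Txn1 at 95.8% of 309 bases and held 13.0%, and Prdx6b matched Prdx6 at 90.1% of 1444 bases and held 1.39%. The levels of Prdx1, Prdx2 and Txn1 are uncertain to that extent. For Gm21399 the authors' deposited tables gave -0.07 in G2 versus G1, -0.09 in G3 versus G1, 0.02 in G4 versus G2 and 0.03 in G4 versus G3 on the log2 scale, none called. With its reads added, the Prdx1 values for the same comparisons were -0.12, -0.07, 0.04 and -0.01.

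Some members also overlap exons of genes on the opposite strand. Prdx5 shares 409 exon bases with Trmt112, and Prdx2 shares 173 with Junb and 177 with Rnaseh2a. The library kit keeps strand, but no source used here says whether strand was used in counting. Trmt112 summed to 2222 normalised reads, with log2 fold changes of 0.04 in G3 versus G1, 0.08 in G4 versus G2 and 0.25 in G4 versus G3 in the authors' deposited tables, none called. If strand was not used, reads from the shared exons cannot be told apart, and the levels of Prdx5 and Prdx2 are uncertain to that extent.

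Several members are textbook targets of NRF2, a factor that binds the antioxidant response element. The core of that element, searched as TGACNNNGC on both strands, was found in 12.4% of 32851 RefSeq promoter windows of build GRCm38.p6, each running from 250 bases before to 50 bases after a start. The table held 8 of the 9 members in 10 windows. A match before the start was present for Prdx1, 124 bases upstream, and for 1 of 3 Txnrd1 starts, 83 bases upstream. They are shown with the match in capitals, on the gene's strand, where the element reads as its reverse complement.
Prdx1, chr4:116685446-116685494, plus strand: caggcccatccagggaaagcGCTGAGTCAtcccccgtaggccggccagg
Txnrd1, chr10:82859094-82859142, plus strand: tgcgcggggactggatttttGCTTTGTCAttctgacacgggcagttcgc
The NRF1 palindrome (4.6% of windows) and the estrogen-related receptor site AAGGTCA (4.72% of windows), both of which occur at promoters of mitochondrial genes, had 0 matches in the members' windows, which says only that neither pattern is there.

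The wider pathway was described from lists of related genes, which were chosen with earlier results of these data known. Counts by list were not computed with trends removed. Of 15 other peroxiredoxin and thioredoxin system genes, 0 were called in each of the 4 comparisons. In G4 versus G2, 12 of 15 were above 0 with a median log2 fold change of 0.10, and 3 of 15 had an unadjusted p under 0.05. Of all genes with a sum of at least 100, 50.1% were above 0 in that comparison, with a median of 0.00, and 9.06% had an unadjusted p under 0.05. Of those 3, the first was Txnip, which binds and inhibits reduced thioredoxin. Its estimated normalised reads per library were 9652, 6553, 10146 and 13044 in G1 to G4, the highest group at a ratio of 1.99 to the lowest. In the authors' deposited table for G4 versus G2 its log2 fold change was 0.99 with an implied standard error of 0.43 (unadjusted p = 0.0211, adjusted p = 0.372). The second was Srxn1, sulfiredoxin, which restores over-oxidised peroxiredoxins. Its levels were 992, 848, 950 and 1217, and the authors' deposited table for G4 versus G2 gave a log2 fold change of 0.52 (implied standard error 0.20, unadjusted p = 0.0110, adjusted p = 0.267). The third was Txndc5, a protein disulphide isomerase of the endoplasmic reticulum, at 0.21 in G4 versus G2 (adjusted p = 0.439) and 0.23 in G3 versus G1 (adjusted p = 1) in the authors' deposited tables. Prdx4, the peroxiredoxin of the endoplasmic reticulum, was scarce, with 84.2, 63.8, 72.6 and 74.9 normalised reads per library. Txnip, Srxn1 and Prdx4 were all lowest in G2, but they are named genes and do not stand for the list. In G2 versus G1, 5 of the 15 genes were above 0 and 10 below, with a median of -0.02.

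In the glutaredoxin and glutathione list, 1 of 8 genes was called in G4 versus G2 and 0 in the other 3 comparisons. Glrx5, a mitochondrial glutaredoxin needed for iron-sulphur clusters, rose by a log2 fold change of 0.49 in the authors' deposited table for G4 versus G2 (implied standard error 0.14, adjusted p = 0.0297). The call was lost when p-values were adjusted over all genes (adjusted p = 0.0585), with trends removed (0.0589), with a t distribution (0.634) and with a minimum of 1.5-fold. Gclm, the modifier subunit of the enzyme that makes the glutathione precursor, stood at 0.40 (adjusted p = 0.136) in the same authors' deposited table. The list's median in G4 versus G2 was 0.04, with 5 of 8 above 0.

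In the NADPH supply list, 1 of 10 genes was called in G4 versus G2 and 0 in the other 3 comparisons. Aldh1l1, a folate enzyme that yields NADPH, fell by 0.83 on the log2 scale in the authors' deposited table for G4 versus G2 (implied standard error 0.21, adjusted p = 0.0130, or 0.600 with a t distribution). In that comparison 1 of 10 genes of the list was above 0, with a median of -0.05. Nnt, the transhydrogenase that makes NADPH in the mitochondrial matrix, stood at 0.17 in the authors' deposited table for G3 versus G1 (unadjusted p = 0.00658, adjusted p = 0.826).

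Among 8 thioredoxin clients, 0 were called in the 4 comparisons. Rrm1, the large subunit of ribonucleotide reductase, was called in the mean of G3 versus G1 and G4 versus G2, where it fell by 0.31 on the log2 scale (standard error 0.06, adjusted p = 2.69e-04). That call was lost with a t distribution (adjusted p = 0.264) and with a minimum of 1.5-fold. In the authors' deposited tables Rrm1 stood at -0.34 in G3 versus G1 (adjusted p = 0.0642) and -0.28 in G4 versus G2 (adjusted p = 0.111). In G3 versus G1, Rrm1 was called when p-values were adjusted over genes with a sum of at least 1000 (adjusted p = 0.0244) and, at -0.37, with trends removed (adjusted p = 0.0134). Msrb2, a mitochondrial methionine sulphoxide reductase, stood at -0.30 in the authors' deposited table for G4 versus G2 (adjusted p = 0.608).

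Of 6 genes that make or insert selenocysteine, on which both reductases depend, 0 were called and 0 had an unadjusted p under 0.05 in any of the 4 comparisons. Sephs2, which makes the selenium donor, lay between -0.09 and 0.07 in the authors' deposited tables. Trnau1ap, which binds the selenocysteine tRNA, stood at -0.16 in the authors' deposited table for G3 versus G1 (adjusted p = 1). Of 8 NRF2 regulators and further targets, 7 had a sum of at least 100 and 0 were called. The one with an unadjusted p under 0.05 was Osgin1, an oxidative stress response gene, at 0.76 in the authors' deposited table for G4 versus G2 (implied standard error 0.35, adjusted p = 0.435). Gsta4, a glutathione transferase, stood at -0.26 in the authors' deposited table for G4 versus G3 (unadjusted p = 0.0932, adjusted p = 1). In G4 versus G2, 2 of these 7 genes were above 0, with a median of -0.11, against 50.1% of genes with a sum of at least 100. This count mixes regulators with targets. It leaves out the members, and also Srxn1 and Gclm, which were counted in other lists. It therefore does not describe NRF2 targets as a whole.

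**Figure D5:**
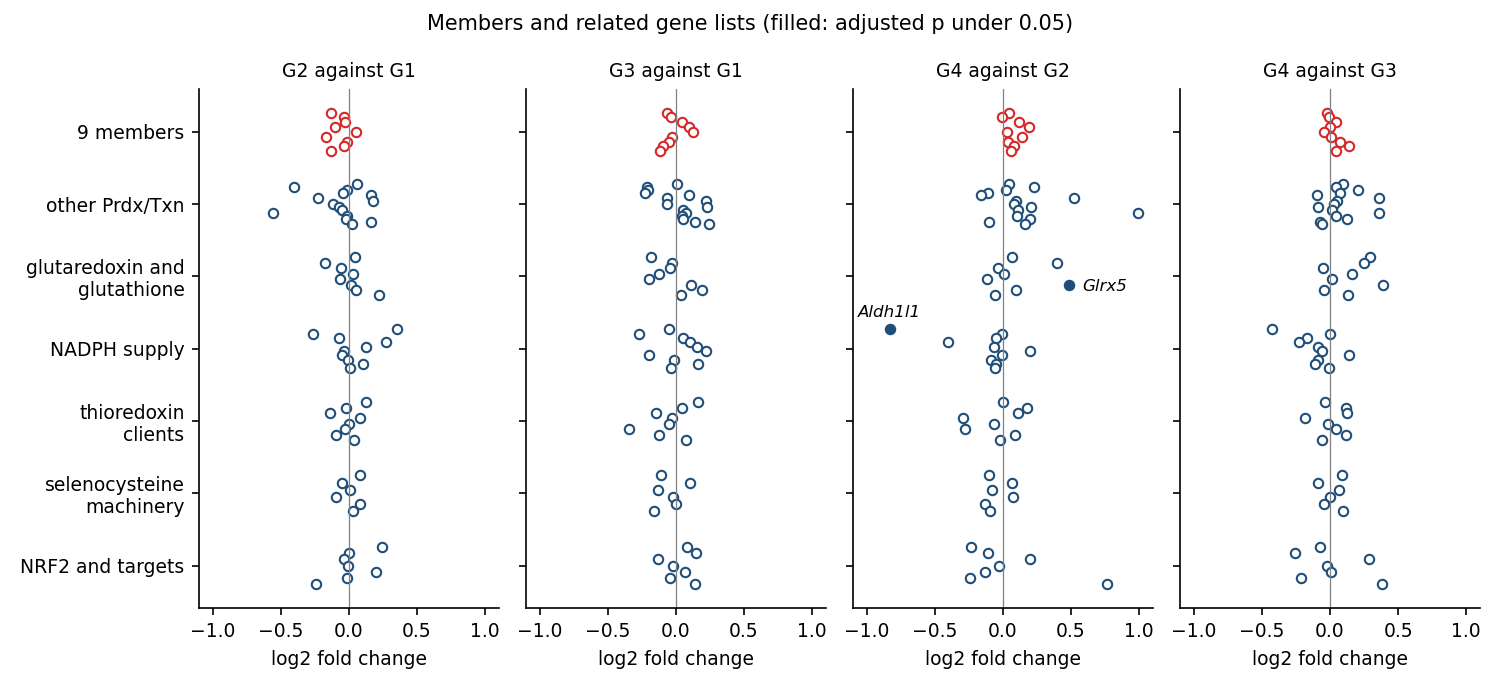
Log2 fold change of each gene in the 4 comparisons, by list; red marks the 9 members, blue the related lists, and filled points the genes called at an adjusted p under 0.05. The filled points are Glrx5 at 0.49 and Aldh1l1 at -0.83, both in G4 versus G2, and the point farthest to the right in that panel is Txnip at 0.99.

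Markers of other cell types also differed in summed level between groups. Erythroid markers (5 of 5 above 0) summed to 4463, 2788, 4234 and 3687 normalised reads per library in G1 to G4. Prdx2, which is abundant in red cells, had a highest-to-lowest ratio of 1.03, against 1.60 for this sum. Adipocyte markers (7 of 7 above 0) summed to 6005, 4705, 4924 and 5931, and endothelial markers (7 of 7 above 0) to 12789, 11683, 12952 and 14310. Macrophage markers (7 of 7 above 0) summed to 1262, 1040, 1253 and 1013. Slow fibre markers (7 of 7 above 0) summed to 550468, 708724, 552573 and 598256, with G2 highest. Schwann cell markers (5 of 5 above 0) summed to 2238, 1850, 2044 and 1919, and fibroblast markers (6 of 6 above 0) to 16567, 15680, 19029 and 15856, both with G2 lowest. The skeletal muscle fibre sum was highest in G2 and the fast fibre sum in G1, with highest-to-lowest ratios of 1.1 and 1.2. G2, the lowest group for Prdx1, Prdx3, Prdx5, Txn1 and Txnrd2, was also lowest for the erythroid, adipocyte, endothelial, Schwann cell and fibroblast sums, and highest for the slow fibre and skeletal muscle fibre sums. Some of these ranks rest on small differences. Txnrd2 had 213 in G2 and 215 in G3, and the fibroblast sum was 15680 in G2 and 15856 in G4. As these levels carry no error, the ranks were not tested. Single markers did have tests. In G4 versus G2, 1 of 7 endothelial and 1 of 7 adipocyte markers were called up, where 1.38% of genes were called. In G3 versus G1, 1 of 6 fibroblast markers was called up, where 0.21% of genes were called. In G2 versus G1, 6 of 7 slow fibre, 3 of 5 erythroid and 0 of 7 endothelial markers had an unadjusted p under 0.05, against 2.35% of genes. The part of these cell types in the members' values was not tested.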

How the data were processed

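RNA from soleus was sequenced in 12 libraries, 3 per group, with titles that number the mice separately; p-values measure the spread between these samples. RSEM 1.2.15, edgeR, Bowtie2 2.1.0 and the builds mm10 and GRCm38 are named, per the submitters' processing notes; roles, order and the edgeR version are not given in the sources used here. Each table the authors deposited holds, per gene, 1 signal (normalised reads summed over all libraries), a log2 fold change, a p-value and an adjusted p. The deposited table for G2 versus G1 lists 15652 genes, none above 0 on the log2 scale. Other values of it were computed as G3 versus G1 plus G4 versus G3 minus G4 versus G2, which matched 7792 listed genes to within 1.0e-14. Adjusted p-values were given for 14539 genes in G4 versus G2 and 17752 in G4 versus G3.

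Standard errors were implied from each log2 value and its two-sided p under a normal distribution, and gave 95% intervals. The interaction and the mean of G3 versus G1 and G4 versus G2 used Wald tests with Benjamini-Hochberg adjustment over 15494 genes with a sum of at least 100. Calls required an adjusted p under 0.05. Scripts were tested on simulated data. Python 3.11.15, scipy 1.17.1 and pandas 2.3.3 were used, and BLAST+ 2.17.0 found copies (identity of at least 90% over at least 200 bases). With no value per library, depth per sample is unknown.

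Members and lists were chosen with earlier results of these data known. Named were all members; from each related list, called genes and the 2 genes with the largest absolute z; copies with a sum of at least 100; and the 3 genes nearest in pattern to the member with the lowest p. Txnip, Prdx4, Trmt112, Junb and Rnaseh2a were named after their values were seen. Alternatives were a t distribution with 8 degrees of freedom, centring on the median, adjustment over all genes or over genes with a sum of at least 1000, a 1.5-fold minimum and another length. Removing trends on GC content, length and signal, and adding copies, were chosen after seeing the data. One item is not reported here.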

Additional observations from a re-analysis of the deposited data

How the results depend on the processing

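The count of members called was 0 in each of the 4 comparisons, the interaction and the mean contrast under every alternative run. The lowest adjusted p of any member was 0.428 over all genes with a p-value, 0.233 over genes with a sum of at least 1000, 0.262 after centring on the median, 0.792 with a t distribution and 0.467 after removing trends on GC content, length and signal. Removing those trends turned the sign of 7 log2 values, with each new value within its standard error: Txn1 to 0.00365 in G3 versus G1 and -0.0574 in G4 versus G3, Prdx6 to -0.00554 and Txn2 to -0.0154 in G4 versus G2, Prdx3 to -0.0188 in G4 versus G3, and the interaction of Prdx2 to -0.0563 and of Prdx3 to -0.00955. It also ended the unadjusted p under 0.05 of Prdx5 in G4 versus G2 and turned the members' median in G4 versus G3 to -0.0569, as given above. In the other direction, it brought Prdx6 in G3 versus G1 to an unadjusted p of 0.0406. Prdx5 in the mean contrast kept an unadjusted p under 0.05 (0.0376). Adding the reads of Txn-ps1 turned Txn1 in G4 versus G3 to -0.0101. The cause was not tested. Levels per kilobase moved for 7 of 9 members with the longest transcript as length, as given above.

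No paired analysis was possible because the labels give no shared replicate numbers and the tables hold no value per library. No library was left out in turn and no outlying library was looked for, since both need values per library. The group levels are estimates without an error.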
